A study of Sus scrofa with 6 samples.

Results

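A set of 10 genes of the TGF-beta and BMP arm was described in pig pluripotent stem cells and fibroblasts: the ligands TGFB1 and BMP4, the receptors TGFBR1, TGFBR2, BMPR1A and BMPR2, the target genes ID1, ID2 and ID3, and the inhibitor SMAD7. They were chosen by symbol, and 10 of the 10 were found among 20131 listed genes. The first group, pgEpiSC, was 4 libraries of pre-gastrulation epiblast stem cells that came from the epiblast of Sus scrofa embryos at embryonic day 10. The second group, pEF, was 2 libraries of porcine embryonic fibroblasts from fetuses at embryonic day 30. No genotype, transgene or treatment is given for either group, and no source used here gives the culture medium. The effect of a ligand or inhibitor in the medium and that of the cell type therefore cannot be told apart. The series calls the libraries biological replicates, but no label ties them to separate lines, cultures or animals, so p-values measure the spread between these libraries.

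TGF-beta and BMP ligands are secreted dimers that bind paired type I and type II receptor kinases on the cell surface. The type II receptor phosphorylates the type I receptor, which then phosphorylates SMAD proteins. TGF-beta acts mainly through SMAD2 and SMAD3, and BMP mainly through SMAD1, SMAD5 and SMAD9. SMADs enter the nucleus with SMAD4. The ID genes are early targets of BMP signalling and encode helix-loop-helix proteins without a DNA-binding region, which hold back basic helix-loop-helix factors. In the mammalian embryo BMP signals to the epiblast around gastrulation, and in fibroblasts TGF-beta is best known as an inducer of matrix genes.

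Expression was given as TPM, which is corrected for transcript length, so levels of different genes in a library can be set side by side. Column sums were 157288 to 320206 TPM for pgEpiSC, against 93556 and 145611 TPM for pEF. By definition TPM over all transcripts of a library adds up to 1000000, so most of each total lies outside the listed genes, and what holds it is not known. A printed TPM is therefore a share of a whole that is mostly unlisted, and folds as deposited shift with it. The labels give a mean of 127.83 M raw reads per library, but the depth of each library is not known, nor how many reads lie behind a value. The 8 pluripotent marker genes in the table summed to between 495.8 and 1944 TPM in pgEpiSC and to 0.115 and 0.638 TPM in pEF. The 10 fibroblast genes summed to between 35.6 and 73.8 TPM in pgEpiSC and to 1357 and 2498 TPM in pEF. The 6 contractile genes, some of which fibroblasts can also express, summed to between 8.86 and 29.9 TPM in pgEpiSC and to 1133 and 3696 TPM in pEF. The 6 epithelial genes summed to between 106.1 and 662.5 TPM in pgEpiSC and to 8.58 and 20.0 TPM in pEF. The 5 hypoblast genes in the table summed to between 1.81 and 4.04 TPM in pgEpiSC and to 15.8 and 17.9 TPM in pEF, where PDGFRA, also a fibroblast gene, held 17.7 and 15.4 TPM in libraries 1 and 2. Of the hypoblast genes FOXA2 was higher in pgEpiSC (1.84, limma, adjusted p = 0.00286), while GATA4 was at or below 0.0768 TPM in every library. The 9 trophectoderm and amnion genes summed to between 1.99 and 14.2 TPM in pgEpiSC and to 1.77 and 2.01 TPM in pEF. Of these KRT7 was higher in pgEpiSC (1.58, limma, adjusted p = 0.0350), with 10.7 TPM in library 2, while CDX2 was at or below 0.0331 TPM in every library. FOXA2 and KRT7 reached 1 TPM in pgEpiSC alone, which let them into the test described below and set their direction. The part of these cell type markers in the member results was not tested. The 6 endothelial and 8 blood genes each stayed at or below 1.44 TPM in every library. The pgEpiSC libraries 1 and 4 were closer to each other (Pearson r = 0.99 on log2 values over 10424 genes) than any other pair of libraries, where the within-group r went down to 0.935. Since TPM holds no counts, whether they differ beyond sampling noise was not tested. None of the 4 member calls below was lost when either of them was left out.

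The type II receptor genes TGFBR2 and BMPR2 and the target genes ID2 and ID3 were lower in pgEpiSC. The type I receptor genes TGFBR1 and BMPR1A, the target ID1, the ligand TGFB1 and the inhibitor SMAD7 were not called as deposited. Genes with at least 1 TPM in at least 2 libraries were tested with limma on log2(TPM + 1), with Benjamini-Hochberg adjustment over 10424 genes and calls at an adjusted p below 0.05. Of the 9 members that passed this filter, 0 were called higher and 4 lower (TGFBR2, BMPR2, ID2 and ID3). Of all tested genes, 18.0% were called higher and 9.43% lower. TGFBR2 and ID2 passed the filter through pEF alone, which set their direction and left them untested when the filter was taken again without either pEF library, while ID3 and BMPR2 reached 1 TPM in both groups. At an unadjusted p below 0.05 also 0 members were higher. The libraries of the groups did not overlap, with pgEpiSC below, for the same 4 and for the untested BMP4, against 12.9% of all tested genes. After scaling pgEpiSC lay below for 6 of the 9 tested members, with TGFB1 and BMPR1A added, and again for BMP4, against 33.9% of all tested genes. For TGFBR1 pgEpiSC lay above by a narrow margin, with 15.42 scaled TPM in pgEpiSC library 2 against 15.4 in pEF library 2. No share over all genes was taken for that direction.

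**Figure D1:**
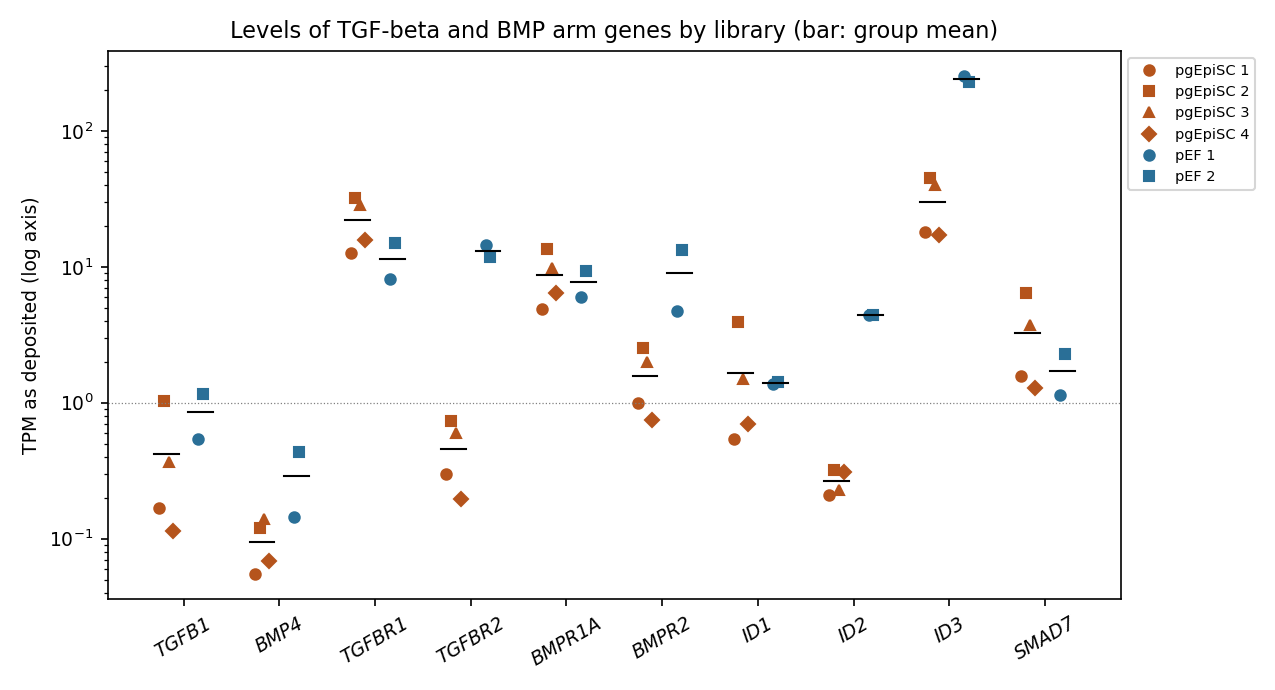
TPM of the 10 genes on a log axis, by library, with pgEpiSC left of pEF for each gene. Symbols mark the libraries, black bars the group means, and the dotted line 1 TPM. TGFBR2, BMPR2, ID2, ID3 and BMP4 do not overlap between the groups.

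The scale of the libraries bears on each of these folds. Median-ratio scaling divides each library by its typical ratio to the others over the 5495 genes above 1 TPM in all 6 libraries. It brought the all-gene median of the log2 fold to 0.07, where it was 0.48 as deposited. Such a centring is what the method aims at, and it does not show which scale is right. Higher calls made up 49.9% of all calls after scaling (3010 higher and 3024 lower) and 65.6% without it (1874 higher and 983 lower). After scaling 28.9% of all tested genes were called higher and 29.0% lower, and 5 members were lower, with TGFB1 added to the 4. Means of pathway genes below are given with SD (n = 4 for pgEpiSC and n = 2 for pEF). The median log2 fold of the 9 tested members was -0.40 as deposited and -0.68 scaled. Folds below are pgEpiSC over pEF in units of log2(TPM + 1). For genes near or under 1 TPM this unit makes a change look smaller than it is. Errors of folds are SE.

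The order of levels differed in its middle ranks. In pgEpiSC mean TPM ran, from high to low, ID3, TGFBR1, BMPR1A, SMAD7, ID1, BMPR2, TGFBR2, TGFB1, ID2 and BMP4. Most neighbours in that order kept their places in 4 of 4 libraries, but ID1 was above BMPR2 in 1 of 4, TGFBR2 above TGFB1 in 3 of 4, and TGFB1 above ID2 in 2 of 4. In pEF the order was ID3, TGFBR2, TGFBR1, BMPR2, BMPR1A, ID2, SMAD7, ID1, TGFB1 and BMP4. There the neighbours TGFBR2 and TGFBR1, BMPR2 and BMPR1A, and SMAD7 and ID1 changed places between the 2 libraries. By these means ID3 was first and BMP4 last in both groups.

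Transcripts of both ligands were scarce. TGFB1, the ubiquitous TGF-beta ligand, was at 0.168, 1.03, 0.364 and 0.114 TPM in pgEpiSC libraries 1 to 4, against 0.537 and 1.16 TPM in pEF libraries 1 and 2. Library 2 was high among the pgEpiSC, and the groups overlapped. The fold was -0.40 ± 0.34 (limma, adjusted p = 0.389; 95% interval -1.09 to 0.28). After scaling the groups no longer overlapped, with 0.148 to 0.498 scaled TPM in pgEpiSC against 0.886 and 1.2 in pEF, and TGFB1 was called lower (-0.68 ± 0.16, limma, adjusted p = 0.00699). BMP4, the BMP ligand that patterns the early embryo, was at 0.0546, 0.120, 0.138 and 0.0679 TPM in pgEpiSC, against 0.144 and 0.436 TPM in pEF. All 4 pgEpiSC values lay below the 2 pEF values, but BMP4 stayed under 1 TPM in every library and was not tested. Without the filter its fold was -0.23 ± 0.09 (limma, adjusted p = 0.194). The rank of these ligands in the library was also lower in pgEpiSC: TGFB1 stood above 39.1 to 49.4% of listed genes in pgEpiSC and above 56.2 and 58.7% in pEF. In bulk RNA, fewer cells with a transcript and less of it per cell cannot be told apart.

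Both type II receptors of the set fell. TGFBR2, which binds TGF-beta and starts its signal, was at 0.298, 0.738, 0.597 and 0.196 TPM in pgEpiSC, against 14.4 and 11.8 TPM in pEF. The lowest pEF library stood far above the highest pgEpiSC library. The mean of 0.457 ± 0.253 TPM (SD, n = 4) in pgEpiSC was 0.0350 times the mean of 13.1 ± 1.84 TPM (SD, n = 2) in pEF, and 0.0199 times after scaling. The fold was -3.28 ± 0.53 (limma, adjusted p = 6.02e-06) as deposited and -3.73 ± 0.24 scaled. TGFBR2 stood above 44.7 to 49.5% of listed genes in pgEpiSC and above 95.4 and 91.2% in pEF.

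BMPR2, a type II receptor of BMP ligands, was at 1.0, 2.54, 1.98 and 0.746 TPM in pgEpiSC, against 4.75 and 13.2 TPM in pEF. The groups did not overlap, but the pEF libraries differed from each other by more, in TPM, than the 4 pgEpiSC libraries did. BMPR2 fell by 1.87 ± 0.57 on the log2 scale (limma, adjusted p = 0.0118). Without pEF replicate 1 the fold was -2.53 (limma, adjusted p = 0.0626), and without pEF replicate 2 it was -1.22 (limma, adjusted p = 0.310), so with 1 fibroblast library left this call was lost. When the filter was also taken again from the remaining libraries, the adjusted p by limma was 0.0369 without pEF replicate 1 and 0.357 without pEF replicate 2. After scaling the fold was -2.36 ± 0.22 (limma, adjusted p = 6.68e-05), and it was called without either pEF library.

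The type I receptors of the set were present in both groups at levels that were not called different. TGFBR1, also known as ALK5, the kinase that phosphorylates SMAD2 and SMAD3, was at 12.7, 32.0, 28.4 and 15.9 TPM in pgEpiSC, against 8.09 and 14.9 TPM in pEF. The pgEpiSC libraries 2 and 3 were high, library 1 lay below pEF library 2, and the fold was 0.85 ± 0.52 (limma, adjusted p = 0.223; 95% interval -0.20 to 1.91). After scaling the values were 15.4 to 20.5 in pgEpiSC and 13.3 and 15.4 in pEF, and the fold was 0.32 ± 0.20 (limma, adjusted p = 0.203; 95% interval -0.14 to 0.77). BMPR1A, also known as ALK3, the type I receptor of BMP2 and BMP4, was at 4.93, 13.5, 9.74 and 6.45 TPM in pgEpiSC, against 5.98 and 9.36 TPM in pEF. The groups overlapped and the fold was 0.10 ± 0.54 (limma, adjusted p = 0.909; 95% interval -1.0 to 1.2). Its direction turned with scaling, to -0.42 ± 0.17 (limma, adjusted p = 0.0645; 95% interval -0.82 to -0.03).

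Ratios within a library do not depend on how libraries are scaled, and they showed the same split between type I and type II receptors of the set. This is a description of these 4 genes and not of all receptors of each type. The type II receptor ACVR2B, described below, was higher in pgEpiSC. TGFBR1 was 42.4, 43.3, 47.5 and 80.8 times TGFBR2 in pgEpiSC libraries 1 to 4, and 0.563 and 1.27 times in pEF. BMPR1A was 4.92, 5.31, 4.92 and 8.65 times BMPR2 in pgEpiSC, and 1.26 and 0.708 times in pEF. Thus library 4 had the widest type I to type II ratio among the pgEpiSC for both pairs. Of the summed TPM of the 4 receptor genes, TGFBR1 held 67.6 ± 1.75% in pgEpiSC (SD, n = 4) and 27.3 ± 4.17% in pEF (SD, n = 2). TGFBR2 held 1.35 ± 0.341% in pgEpiSC and 33.6 ± 13.7% in pEF. BMPR2 held 4.65 ± 0.979% in pgEpiSC and 20.6 ± 8.86% in pEF. BMPR1A held 26.4 ± 1.78% in pgEpiSC and 18.5 ± 0.707% in pEF. The sum itself was 18.9 to 48.7 TPM in pgEpiSC and 33.2 and 49.2 TPM in pEF.

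**Figure D2:**
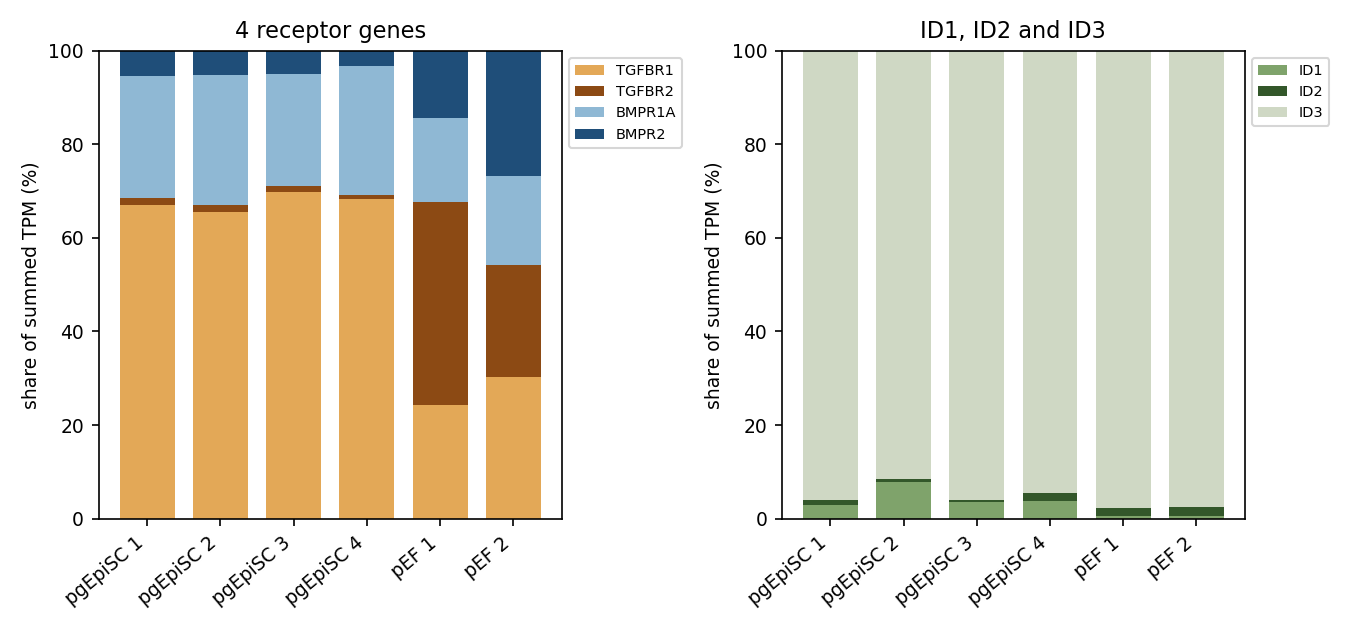
Share of the summed TPM held by each of the 4 receptor genes (left) and each of ID1, ID2 and ID3 (right), 1 stacked bar per library, with pgEpiSC before pEF. TGFBR2 and BMPR2 take a small part of the pgEpiSC bars, and ID3 takes over 90% of each ID bar.

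Of the 3 ID genes, ID3 and ID2 fell and ID1 was not called. ID3 was the most abundant member, at 18.1, 45.1, 40.2 and 17.1 TPM in pgEpiSC, against 255 and 227 TPM in pEF. Every pgEpiSC library lay below both pEF libraries. ID3 averaged 30.1 ± 14.6 TPM in pgEpiSC and 241 ± 19.3 TPM in pEF, a ratio of 0.125, and 0.0735 after scaling. The fold was -3.09 ± 0.48 (limma, adjusted p = 3.67e-06) as deposited and -3.66 ± 0.28 scaled. ID3 stood above 95.2 to 96.9% of listed genes in pgEpiSC and above 99.7 and 99.6% in pEF.

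ID2, which is also known as an inhibitor of E proteins in many lineages, was at 0.208, 0.322, 0.226 and 0.308 TPM in pgEpiSC, against 4.46 and 4.41 TPM in pEF. The values within each group were close and the groups were far apart. The mean in pgEpiSC was 0.0600 times that in pEF, with a fold of -2.10 ± 0.42 (limma, adjusted p = 0.000170). ID1 was at 0.539, 3.91, 1.49 and 0.702 TPM in pgEpiSC, against 1.36 and 1.42 TPM in pEF. Its pgEpiSC values lay on both sides of the pEF values, with library 2 the highest. The fold was -0.01 ± 0.49 (limma, adjusted p = 0.994; 95% interval -1.01 to 0.99) as deposited and -0.43 ± 0.23 scaled (limma, adjusted p = 0.140; 95% interval -0.96 to 0.10). Without pgEpiSC replicate 2 the scaled fold was -0.59 and called lower (limma, adjusted p = 0.0263).

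Within the summed ID transcripts the order of ID1 and ID2 differed between the groups. ID3 held 94.4 ± 2.14% of the summed ID TPM in pgEpiSC and 97.6 ± 0.186% in pEF. ID1 held 4.55 ± 2.29% in pgEpiSC and 0.565 ± 0.0592% in pEF. ID1 was above ID2 in each pgEpiSC library, at 2.59, 12.1, 6.58 and 2.28 times its level, and below it in both pEF libraries, at 0.306 and 0.321 times. The whole ID sum was 18.1 to 49.3 TPM in pgEpiSC and 261 and 233 TPM in pEF. These shares are descriptions and were not tested.

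SMAD7, the inhibitory SMAD that blocks type I receptors and is itself induced by TGF-beta and BMP, was at 1.58, 6.37, 3.73 and 1.29 TPM in pgEpiSC, against 1.14 and 2.28 TPM in pEF. The groups overlapped. The fold was 0.51 ± 0.57 (limma, adjusted p = 0.522; 95% interval -0.63 to 1.66) as deposited and 0.10 ± 0.20 scaled (limma, adjusted p = 0.698; 95% interval -0.36 to 0.56).

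**Figure D3:**
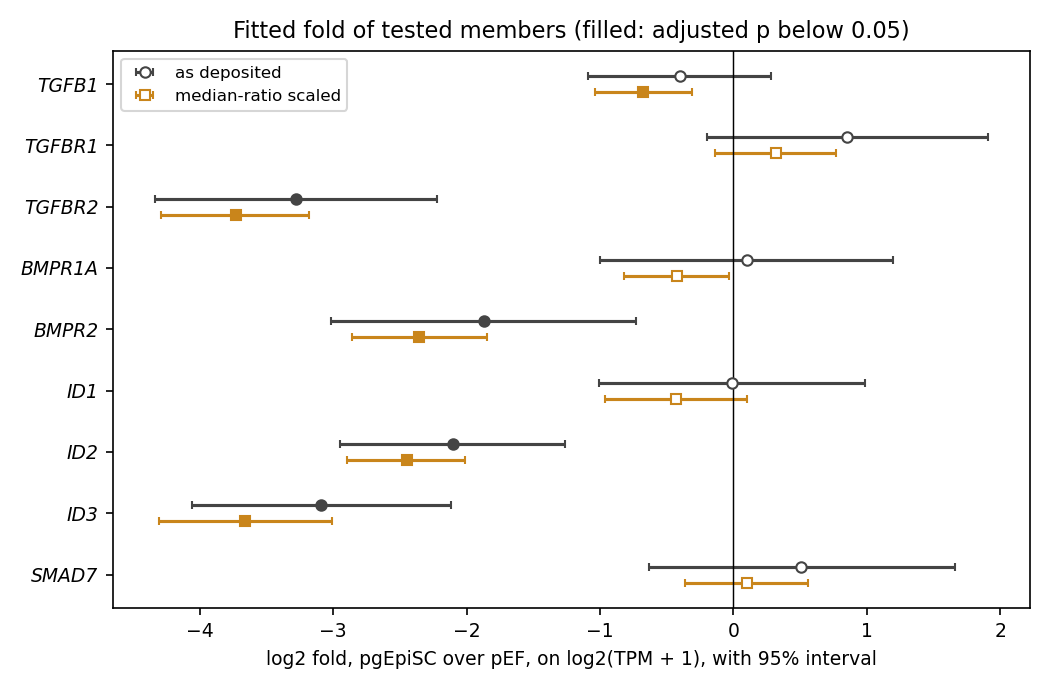
Fitted log2 fold, pgEpiSC over pEF, of the 9 tested members with 95% intervals, as deposited (circles) and after median-ratio scaling (squares). Filled symbols have an adjusted p below 0.05. TGFBR2, BMPR2, ID2 and ID3 are filled on both scales and TGFB1 on the scaled one.

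Among the 4 pgEpiSC libraries most of the spread moved with library scale. The size factors of pgEpiSC libraries 1 to 4 were 0.751, 2.07, 1.42 and 0.773, and the members were mostly high in libraries 2 and 3. The coefficient of variation of TGFBR1 was 13.6% scaled and 42.3% as deposited, that of BMPR1A 12.2% and 43.8%, and that of ID3 12.5% and 48.5%. The coefficient of ID1 was 45.2% scaled and 93.7% as deposited, and that of TGFB1 53.8% and 100.7%, with library 2 the highest for both. ID2 went the other way, with 46.5% scaled and 21.5% as deposited, at levels of 0.155 to 0.398 scaled TPM.

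The rest of the pathway was read from a list of 89 other genes, of which 84 were in the table and 53 were tested. Of these 5 rose (ACVR2B, TGIF2, FST, TLL1 and FURIN), 22 fell and 26 were not called, beside 18.0% higher and 9.43% lower calls over all tested genes, and the median fold was -0.74 against 0.48 for all tested genes. After scaling 6 rose, 34 fell and 13 were not called, beside 28.9% higher and 29.0% lower over all tested genes, and the median fold was -1.12 against 0.07. Of the 22 that fell, 9 passed the filter through pEF alone, and 2 of the 5 that rose passed through pgEpiSC alone. Passing through 1 group alone set the direction of these genes, here and in the lists below. The 9 were left untested when the filter was taken again without either pEF library. The leave-outs of the pathway genes given next kept the gene set and do not cover that case. All 27 genes called as deposited were also called after scaling, in the same direction. With each library left out in turn, 16 of the 22 and 1 of the 5 (FST) kept their calls throughout, on the gene set of all 6 libraries.

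The 3 other ligands that passed the filter fell, beside 9.43% lower calls over all tested genes. All passed it through pEF alone, which set their direction. No share was taken over genes that passed in that way, so this count is a description only. Ligands below the filter lay on both sides. TGFB2, a second TGF-beta ligand, was at 0.146 ± 0.0827 TPM in pgEpiSC and 3.62 ± 2.55 TPM in pEF (fold -1.89 ± 0.39, limma, adjusted p = 0.000254). GDF6, a BMP family ligand, was at 0.0112 ± 0.020 TPM in pgEpiSC and 4.90 ± 2.58 TPM in pEF. GDF15, a distant family member induced by stress, also fell. So did BMP1, which stands on the ligand list but is a metalloproteinase and not a BMP ligand. The call of BMP1 was lost without pgEpiSC replicate 1 (adjusted p = 0.0568), pgEpiSC replicate 3 (0.10), pEF replicate 1 (0.109) or pEF replicate 2 (0.354, limma). Of 13 listed ligands below the filter, pgEpiSC lay above pEF in every library for 5 (BMP3, BMP5, BMP6, BMP7 and GDF5), below for 1 (TGFB3), and the groups overlapped for 7. No share over all genes below the filter was taken, so these counts are a description only. They are as deposited: after scaling GDF5 overlapped and GDF11 lay below. BMP5 was at or below 0.0242 TPM in every library. BMP7 was at 0.749, 2.82, 0.848 and 0.676 TPM in pgEpiSC against 0.0184 and 0.0195 TPM in pEF. BMP6 averaged 0.558 TPM in pgEpiSC and 0.0186 TPM in pEF, and BMP3 0.239 TPM in pgEpiSC and 0.0106 TPM in pEF. BMP2 averaged 0.18 TPM in pgEpiSC and 0.203 TPM in pEF and was not tested.

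A different type II receptor was high in pgEpiSC. ACVR2B, a type II receptor of activin and Nodal, was at 3.34, 12.4, 7.79 and 2.67 TPM in pgEpiSC, against 0.107 and 0.305 TPM in pEF. It passed the filter through pgEpiSC alone, and the groups did not overlap. The fold was 2.45 ± 0.58 (limma, adjusted p = 0.00130), but the call was lost without pEF replicate 1 (2.33, adjusted p = 0.144) or pEF replicate 2 (2.57, limma, adjusted p = 0.0895). Its paralog ACVR2A, at 1.68 ± 0.953 TPM in pgEpiSC and 2.94 ± 0.947 TPM in pEF, was not called (-0.60, limma, adjusted p = 0.410) and was lower after scaling (-1.04, limma, adjusted p = 0.00178). ACVR1, a type I receptor also known as ALK2, was at 4.84 ± 2.80 TPM in pgEpiSC and 4.74 ± 2.91 TPM in pEF.

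The SMAD transducers were mostly not called. SMAD4, the shared partner, was at 15.9 ± 8.72 TPM in pgEpiSC and 13.7 ± 5.05 TPM in pEF, and SMAD2 was at 10.2 ± 3.13 TPM in pgEpiSC and 7.69 ± 3.38 TPM in pEF. Of the BMP transducers, SMAD5 was at 8.75 ± 1.66 TPM in pgEpiSC and 7.43 ± 1.44 TPM in pEF. SMAD9 fell, at 0.0576 ± 0.0542 TPM in pgEpiSC against 1.86 ± 1.13 TPM in pEF (-1.38 ± 0.32, limma, adjusted p = 0.00116), and it passed the filter through pEF alone. After scaling SMAD1 and SMAD3 were lower as well, with folds of -0.57 and -1.17 (limma, adjusted p = 0.00914 and 0.000443). Of 11 intracellular inhibitors 1 rose (TGIF2, a corepressor), 0 fell and 10 were not called as deposited, whereas 1 rose and 6 fell after scaling. Over all tested genes 18.0% were called higher and 9.43% lower as deposited, and 28.9% and 29.0% after scaling. TGIF2 was at 8.60 ± 6.58 TPM in pgEpiSC and 1.24 ± 0.649 TPM in pEF. It was no longer called without pEF replicate 1 (1.60, adjusted p = 0.312) or pEF replicate 2 (2.20, limma, adjusted p = 0.137). TGIF1, SKIL and STRAP, which were at 10 TPM or more in a group, were not called as deposited. TGIF1 was at 22.1 ± 11.6 TPM in pgEpiSC and 13.3 ± 2.31 TPM in pEF.

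Extracellular regulators changed in both directions, with 3 higher, 10 lower and 2 not called of 15 tested. Over all tested genes 18.0% were called higher and 9.43% lower. Of the 10 lower, 3 (LTBP2, NOG and GREM1) passed the filter through pEF alone. Of the 3 higher, 1 (TLL1) passed it through pgEpiSC alone. FST, follistatin, which binds activin and some BMPs, was at 20.9, 49.5, 28.6 and 13.0 TPM in pgEpiSC, against 0.614 and 1.47 TPM in pEF. Its groups were far apart and the fold was 3.70 ± 0.55 (limma, adjusted p = 1.49e-06). NBL1, a secreted BMP antagonist, was at 0.767 ± 0.438 TPM in pgEpiSC and 32.7 ± 7.37 TPM in pEF (-4.27 ± 0.56, limma, adjusted p = 1.05e-07). LTBP2, CRIM1 and LTBP1 had folds of -4.25, -3.87 and -3.21. LTBP1 tethers latent TGF-beta to the matrix, and LTBP2 was also on the list of targets. The BMP antagonists NOG and GREM1 fell too, GREM1 being at 0.194 ± 0.13 TPM in pgEpiSC and 6.19 ± 0.183 TPM in pEF. FURIN, a protease that cleaves the ligand precursors, rose to 15.7 ± 11.2 TPM in pgEpiSC, against 3.57 ± 0.753 TPM in pEF. It was no longer called without pgEpiSC replicate 3 (adjusted p = 0.125), pEF replicate 1 (0.355) or pEF replicate 2 (0.204, limma).

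Of 9 tested target genes 0 rose, 8 fell and 1 (ID4) was not called, beside 9.43% lower calls over all tested genes, and 3 of the 8 passed the filter through pEF alone. After scaling 9 were lower, beside 29.0% of all tested genes. CCN2, a matricellular protein, was at 1.02 ± 0.307 TPM in pgEpiSC and 55.4 ± 30.6 TPM in pEF (-4.70 ± 0.56, limma, adjusted p = 1.11e-08). JUNB, an AP-1 subunit, was listed at 0 in all 4 pgEpiSC libraries and at 19.0 and 26.9 TPM in pEF. COL1A1, a fibrillar collagen gene that is also among the fibroblast markers, had a fold of -4.89 ± 0.62. Several of these targets are also general fibroblast genes, and the part of cell type in these counts was not tested. ID4, the fourth ID gene, was at 1.07 ± 0.393 TPM in pgEpiSC and 2.44 ± 0.671 TPM in pEF (-0.74, limma, adjusted p = 0.247) and was lower after scaling (-1.12, limma, adjusted p = 0.00115). The E proteins that ID proteins bind were not called as deposited: TCF3 was at 8.25 ± 4.22 TPM in pgEpiSC and 2.33 ± 0.822 TPM in pEF (1.38, limma, adjusted p = 0.0607), and TCF12 was at 10.5 ± 2.95 TPM in pgEpiSC and 11.6 ± 3.22 TPM in pEF. After scaling TCF3 was higher (0.93) and TCF4 and TCF12 lower (-0.83 and -0.68, limma, adjusted p = 0.000992, 0.00804 and 0.0438).

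**Figure D4:**
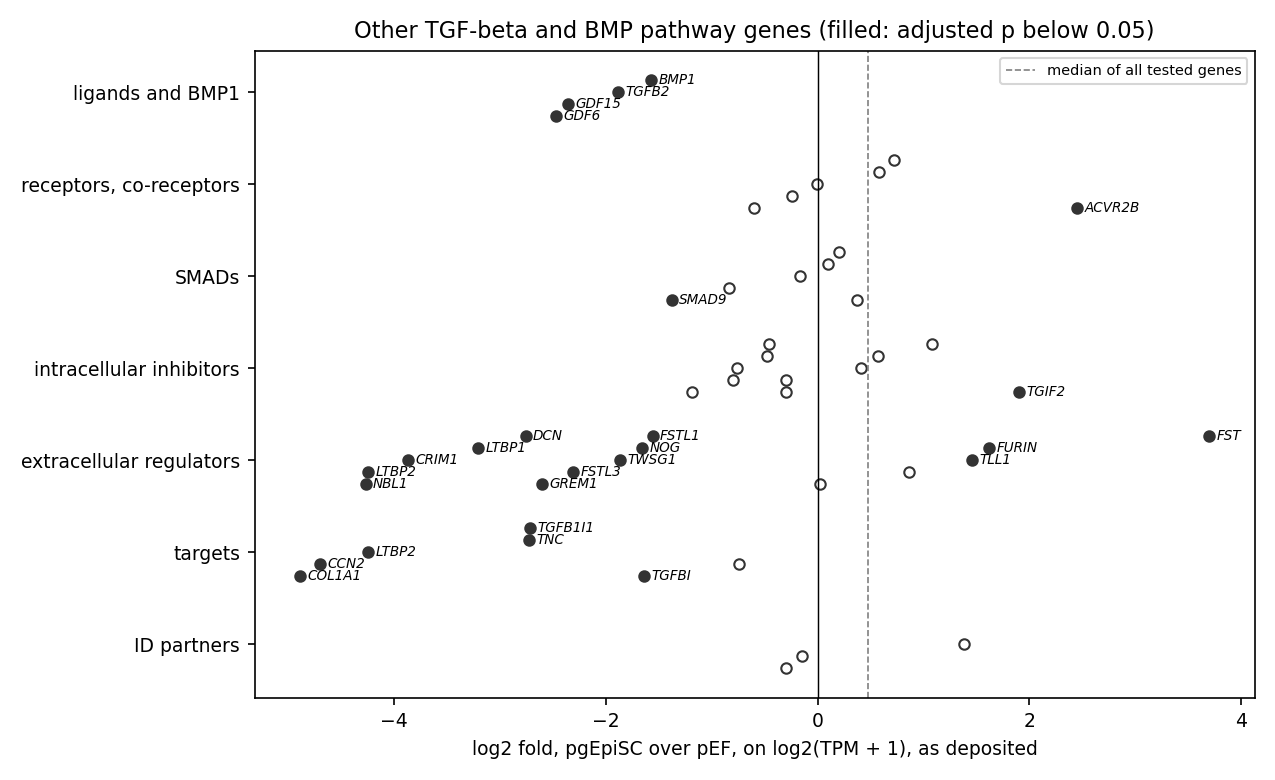
Log2 fold, pgEpiSC over pEF, of other pathway genes by role, as deposited, with 1 point per gene shown and names for genes with an adjusted p below 0.05 (filled). The dashed line is the median of all tested genes, 0.48, and JUNB, listed at 0 in pgEpiSC, is not drawn. FST lies farthest to the right and COL1A1 farthest to the left.

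The genes nearest to a member in pattern were taken by Pearson r of scaled log2(TPM + 1) over the 6 libraries, among 8916 other tested genes with a symbol. For members with wide folds many genes were about equally near: 270 had r of at least 0.99 with TGFBR2, led by ADM, PRELP and SFRP4 (r of 0.9996, 0.9993 and 0.9993), and 253 with ID3, led by CCPG1, CASP8 and TGFBR2 (0.9992, 0.9991 and 0.9987). For ID2 the nearest were HOXA10, PDGFRA and GREM1 (0.9989, 0.9989 and 0.9986). TGFBR1 and ID1 had 0 genes at that r, and BMPR1A and SMAD7 had 1 each. BMPR1A was nearest to CTNNB1 (0.9944), TGFBR1 to RNF139 (0.9882), and SMAD7 to KDM3B (0.9902). These values describe 6 points in 2 groups, where any genes that separate the groups correlate.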

How the data were processed

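Libraries were strand-specific and made from total RNA after rRNA depletion, with on average 127.83 M raw and 126.01 M high-quality reads of 150 bases, per the labels' protocols. The submitters' processing notes list STAR 2.6.0c and kallisto 0.44.0 without saying which step each did; build and annotation are not stated in those notes. The authors deposited TPM, in a table whose headers name 1 library per column, for 20132 Ensembl gene rows. Symbols came from a gene name table, which matched 14062 rows (69.8%); 2 rows that shared a symbol were summed. Members and lists were chosen with earlier results of these data known. The fit, on log2(TPM + 1), used limma 3.58.1 under R 4.3.3; group was the single factor, and the empirical Bayes variance had a trend. On simulated data of 10424 genes for pgEpiSC against pEF, 125 of 200 changed genes were recovered as deposited (5 unchanged genes called) and 171 of 200 after median-ratio scaling (8 called). The changed genes were drawn only from those above a set mean level. TGFB1, TGFBR2, BMPR2, ID1, ID2 and SMAD7 lie below that level, so these rates do not describe them. Every member was named; of other pathway genes, up to 4 called per list by fold and those at 10 TPM or more that were not called could be named, and BMP1, BMP2, BMP3, BMP5, BMP6, BMP7, GDF5, TGFB3, ACVR2A, ACVR1, SMAD1, SMAD3, SMAD5, NOG, GREM1, ID4 the E proteins and the markers FOXA2, GATA4, PDGFRA, KRT7 and CDX2 were added after their values were seen. Alternatives were pseudocounts of 0.1 and 5, other filters, scalings and variance models, a replicate block, and each library left out, alone and with scaling. Leave-outs first took the filter and size factors again from the remaining libraries; after these results were seen, the genes and size factors of all 6 libraries were kept instead, and the first version is given as an added alternative. No sequence is shown. A called target gene is counted with its list but not reported here by name or drawn. Python 3.11.15, numpy 2.4.6, pandas 2.3.3 and matplotlib 3.10.9 made tables and figures.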

Additional observations from a re-analysis of the deposited data

Results flagged for a closer look

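Over the 4 pgEpiSC libraries, 97 values were examined for 1 library far from the others by Dixon's ratio of gap to range at the 95% level: the TPM of the 10 members and of 65 pathway genes (those tested and all listed ligands), the scaled TPM of the 10 members, 9 sums and shares, and 3 ratios. Chance flags about 1 in 20 groups, and 8 of the 97 stood out. Library 4 was apart in 3 values that share their receptor genes and are not independent: the TGFBR2 share of the 4 receptor genes was 1.58, 1.51, 1.47 and 0.844% in libraries 1 to 4 (ratio 0.849), TGFBR1 was 42.4, 43.3, 47.5 and 80.8 times TGFBR2 (ratio 0.868), and BMPR1A was 4.92, 5.31, 4.92 and 8.65 times BMPR2 (ratio 0.895). Library 2 was high for BMP7, at 0.749, 2.82, 0.848 and 0.676 TPM (ratio 0.92), for COL1A1, at 0.413, 1.23, 0.416 and 0.404 TPM (ratio 0.985), and for GDF6, at 0, 0.0410, 0 and 0.00373 TPM (ratio 0.909). Pathway genes were examined only as deposited, and library 2 had the largest size factor of the pgEpiSC, 2.07. After scaling BMP7 was at 0.997, 1.36, 0.598 and 0.875 in libraries 1 to 4. COL1A1 was then at 0.55, 0.593, 0.293 and 0.522. For both genes scaling brought library 2 closer to the other libraries. Library 3 was high for 2 ligands close to 0: BMP10 was at 0.00178, 0, 0.0131 and 0 TPM (ratio 0.864), and GDF2 was listed at 0 in the other libraries and at 0.0132 TPM in library 3 (ratio 1.0).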

How the results depend on the processing

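The calls of TGFBR2, ID2 and ID3 kept their direction and side of the threshold under every alternative in which they were tested (30, 30 and 35 of them). Their folds ran from -5.23 to -1.72, -4.09 to -0.84 and -4.09 to -2.87. This says less for TGFBR2 and ID2, which reached 1 TPM in pEF alone, so the filter of 1 TPM set their direction. Both were untested at a mean of at least 5 TPM, and without either pEF library when the filter was taken again. Without any filter both were lower too (-3.28 and -2.10, limma, adjusted p = 0.00630 and 0.0137). BMPR2 was called in 30 of 34 (-3.14 to -1.03), and lost its call without a filter (-1.87, limma, adjusted p = 0.0800) and without either pEF library; with the filter also taken again it was called without pEF replicate 1 and not without pEF replicate 2. TGFB1 was called lower in 14 of 30, each with a scaling, and TGFBR1 in 0 of 35 (0.10 to 1.26). Folds near 0 changed sign, and the cause was not tested: ID1 was 0.03 with a pseudocount of 5 and 0.20 with the replicate block. BMPR1A was -0.42 after median-ratio scaling, -0.69 when rescaled to 1000000 (called lower, limma, adjusted p = 0.0487), -0.27 after quantile normalization and -0.52 with median-ratio scaling and the block. SMAD7 was -0.09 when rescaled to 1000000.

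Counts of higher and lower calls over all genes, 1874 and 983 as deposited, moved with the settings. A pseudocount of 5 gave 967 higher and no filter 787. A mean of at least 5 TPM gave 1185 and 368, with fewer genes tested, among them 1 lower member. Scaling by median ratio gave 3010 and 3024, quantile normalization 3374 and 2779, rescaling 2924 lower, and scaling with the block 2529 lower. Pathway genes called higher numbered 2, 1 and 2 with a pseudocount of 5, without a filter and with a mean of at least 5 TPM, and 8 with the block; those called lower numbered 11 with that mean and 34 after median-ratio scaling, rescaling or scaling with the block. With 1 library left out, alone or with median-ratio scaling, and with the genes tested kept or the filter taken again, higher calls ranged from 252 to 3135 and lower calls from 194 to 3169 over all genes, pathway calls from 1 to 7 higher and from 7 to 35 lower, and member calls from 1 to 6 lower. The filter taken again was the first version of the leave-outs. Keeping the genes of all 6 libraries was chosen after its results were seen. That first version left TGFBR2 and ID2 untested without either pEF library. The folds then ranged from -0.52 to 0.38 for BMPR1A, from -0.64 to 0.20 for ID1 and from -0.10 to 0.82 for SMAD7. With 1 pEF library left, it is assumed to vary like the pgEpiSC.

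Replicate numbers were not taken as pairs, since nothing says they are shared between the cell types: deviations from the group means correlated at 0.098 for number 1 and 0.172 for number 2, and with 2 pEF libraries these 2 pairs cannot show pairing. The replicate block gave 2204 higher and 893 lower calls over all genes and the same 4 member calls. What read depth limits is unknown, since TPM keeps none.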
